A study of Mus musculus with 38 samples.

Results

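Signal of an antibody against HSF2 was compared between mitotic and asynchronous mouse embryonic stem cells carrying Halo-HSF2, at sites of heat shock factor 2. The sites were those that the authors had called for endogenous HSF2 in wild type cells, so none was called for the construct. Of 2141 listed intervals 6 were exact repeats, and 2121 of the 2135 distinct sites had signal above 0 in both phases and were kept. The series held 38 libraries in 19 groups, of which 4 made this comparison, 2 asynchronous (A) and 2 mitotic (M). All 4 came from JM8 cells in which Hsf2 had been knocked out, and which carried HSF2 with an N-terminal HaloTag. The construct was integrated by PiggyBac, driven by the EF1α promoter and not by that of Hsf2, and selected with G418. Its level was not measured here. The submitters labelled the line HSF2-OE. Mitotic cells had been arrested with nocodazole at 50 ng/ml for 6 h and shaken off. Asynchronous cells received none, so the drug and the phase cannot be told apart. A pair of other experiments over the same sites served for comparison, endogenous HSF2 in wild type JM8 cells with the same antibody and Halo-HSF2 in knockout cells with an anti-HA antibody. The 3 experiments shared no libraries. The paper lists the HA-tagged Halo-HSF2 used with anti-HA apart from the Halo-HSF2 used with anti-HSF2. The labels do not say whether the construct and line were the same. Between the Halo-HSF2 experiments the antibody, construct and line therefore cannot be told apart.

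CUT&Tag directs the Tn5 transposase to an antibody on chromatin, and adapters inserted nearby give coverage. Each value was the mean coverage per base over a site, scaled by the authors to reads of added Drosophila cells and averaged by them over both libraries of a condition. Their depth is unknown, since these values come without read totals. There was no spread between libraries to set a difference against, and no test was made. The change at a site was the log2 of mitotic over asynchronous signal (log2 M/A). In bulk cells, fewer cells carrying the signal and less signal per cell cannot be told apart.

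Heat shock factors form trimers that contact heat shock elements, arrays of the unit nGAAn in alternating orientation, and are known for activating genes of molecular chaperones. HSF2 is expressed during development and in stem cells, and has been described as a factor that can stay with some promoters through mitosis. Chaperones fold new or damaged proteins, and the HSP70, HSP90, HSP40 and chaperonin families divide that work between them.

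The elements at 6 sites are printed because they mark the places where endogenous HSF2 was strong or where a listed gene carried its own element. They were read from the plus strand of GRCm38 (mm10), with the element in capitals, and matched GAANNTTCNNGAA or TTCNNGAANNTTC, which are reverse complements of each other. The Hsph1 element lay within the printed window chr5:149636280-149636308, 38 bases downstream of a transcript start in the untranslated part of the first exon. Hspa8 had a pair, within chr9:40801055-40801083 and chr9:40801213-40801241. The former was 79 bases downstream of a start and the latter 81 bases upstream of another, both within annotated untranslated sequence. At Hsp90aa1 the element, within chr12:110696379-110696407, contained a start. The window chr1:55088019-55088116 between Hspd1 and Hspe1 held 4 units, 52 bases from a start. Hspb1 (chr5:135888869-135888961) and Cenpf (chr1:189687856-189687948) had their elements 891 and 178 bases downstream of a start.
Hsph1: actgaggaGAACTTTCCAGAAtctgcagc
Hspa8, a: gcgagcgtGAAAGTTCCAGAAcgccgcgg
Hspa8, b: cggcacccTTCTGGAAGGTTCtaagacag
Hsp90aa1: agcctccgGAACCTTCCGGAAgaaccctc
Hspd1/Hspe1: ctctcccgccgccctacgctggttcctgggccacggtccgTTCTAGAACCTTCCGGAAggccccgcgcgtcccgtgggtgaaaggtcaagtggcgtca
Hspb1: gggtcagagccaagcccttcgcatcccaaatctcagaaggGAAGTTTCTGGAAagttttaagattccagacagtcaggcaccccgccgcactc
Cenpf: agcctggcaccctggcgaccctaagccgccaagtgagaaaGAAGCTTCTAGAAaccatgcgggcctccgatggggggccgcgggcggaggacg
Such an element was present in 300 of the 2131 sites with a reference sequence (14.1%). In windows of the same length, the middle 300 bases held it at 65 sites (3.05%), against 198 of 32851 RefSeq promoters (0.603%). A match describes the letters and does not show that a factor was bound.

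The 8 highest and 8 lowest log2 M/A among sites of at least the median mean signal were at sites with none of these elements. The middle 120 bases of 3 upward and 2 downward sites are printed to show what these sites held in its place. They are again from the plus strand of GRCm38 (mm10), with CG dinucleotides in capitals. The upward ones were at a microRNA gene, Gm25911 (chr1:167340080-167340199), in an intron 4431 bp from the nearest start of Atf2 (chr2:73867942-73868061), and in an intron by a start of Hdac4 (chr1:92180583-92180702). The downward ones were upstream of Rnf44 (chr13:54694006-54694125) and 2247 bp from the non-coding RNA gene Dlx6os1 (chr6:6874325-6874444).
Gm25911: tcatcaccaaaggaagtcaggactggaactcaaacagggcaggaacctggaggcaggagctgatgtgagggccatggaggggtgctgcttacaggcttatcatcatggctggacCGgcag
Atf2: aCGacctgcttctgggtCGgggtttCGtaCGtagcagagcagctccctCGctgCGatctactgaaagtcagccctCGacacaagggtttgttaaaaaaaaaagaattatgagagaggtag
Hdac4: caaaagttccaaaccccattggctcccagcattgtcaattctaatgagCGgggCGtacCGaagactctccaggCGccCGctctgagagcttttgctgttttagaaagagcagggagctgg
Rnf44: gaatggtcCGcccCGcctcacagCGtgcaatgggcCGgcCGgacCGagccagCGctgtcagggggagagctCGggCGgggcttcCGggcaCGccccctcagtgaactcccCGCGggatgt
Dlx6os1: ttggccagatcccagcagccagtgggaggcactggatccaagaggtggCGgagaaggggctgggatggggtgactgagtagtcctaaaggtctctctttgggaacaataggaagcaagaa
These windows held 13 CG dinucleotides at Rnf44 but 1 at Dlx6os1. Those at Atf2, Hdac4 and Gm25911 held 7, 5 and 1. Over the whole 8 sites of each kind, the median GC content was 49.5% for the highest log2 M/A and 61.7% for the lowest. Among all sites it was 53.6% at a log2 M/A of 2 or more and 55.6% at −1 or less. The poorest and richest quartile of sites by GC content had median log2 M/A of 0.54 and 0.78, the other way round.

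Most HSF2 sites carried more signal in mitotic than in asynchronous Halo-HSF2 cells. The median log2 M/A over the 2121 sites was 0.64, a fold of 1.56, and the lower and upper quartiles were 0.13 and 1.19. M exceeded A at 1690 sites (79.7%). A log2 M/A of 1 or more, a fold of at least 2, was reached at 710 sites (33.5%), and one of −1 or less at 62 (2.92%). The median signal was 1.58 in A and 2.44 in M, and the means were 2.12 and 3.47. Much of this shift was shared by weak sites. The weakest quartile, taken by mean signal, had a median log2 M/A of 0.54, and setting that to 0 left a median of 0.10 over all sites, with 1179 (55.6%) above 0. Changes of gene groups are therefore also given relative to this shift of 0.54.

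The order of the sites was kept in part, with an R2 of 0.401 between log2 mitotic and log2 asynchronous signal. R2 was 0.885 on linear values and 0.282 with a minimum mean signal of 1. The value of 0.401 describes 2121 sites of the same averaged tracks, and sites are not replicates. At 14 further sites a phase was listed at 0, which gives no ratio. In 13 of them that phase was A, with a mitotic signal of 0.129 to 3.64 and a median of 0.572. One of these lay over the start of Hikeshi, which encodes a carrier that brings HSP70 into the nucleus, and was chosen after its values were seen. Its mitotic signal was 0.545. The single site listed at 0 in M, 27585 bp from A530006G24Rik, had an asynchronous signal of 0.184.

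**Figure D1:**
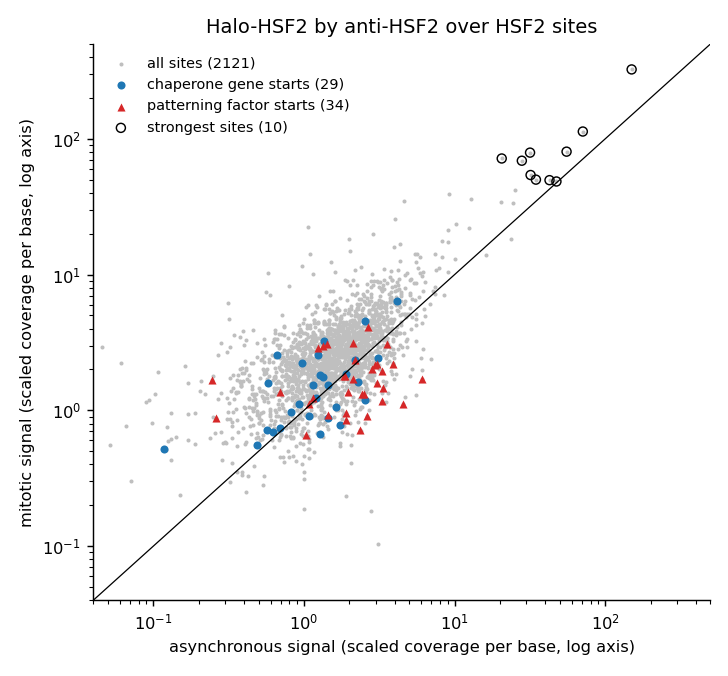
Mitotic against asynchronous anti-HSF2 signal of Halo-HSF2 cells over 2121 HSF2 sites (scaled coverage per base, both axes log), with the line of equal signal. Chaperone gene starts (29) lie within the cloud of all sites, patterning factor starts (34) lie mostly below the line, and the 10 strongest sites stand apart at the upper right.

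Chaperone genes at which endogenous HSF2 was strong did not stand out in the Halo-HSF2 cells by mean signal over the site. Hsph1 encodes an HSP110 protein that exchanges nucleotide on HSP70, and its site held more endogenous HSF2 signal in A than 99.7% of sites. In the Halo-HSF2 cells it exceeded 35.2% of sites in A and 53.2% in M. Hspa8, the constitutive cytosolic HSP70, was above 99.3% of sites for endogenous HSF2 in A, but above 44.7% in A and 24.0% in M in the Halo-HSF2 cells. Hsp90aa1, the stress-inducible cytosolic HSP90, went from 99.4% to 23.7% in the same comparison of asynchronous cells. Hsp90ab1, the constitutive one, kept a high place in A (87.4%) but not in M (50.1%). These are places within each experiment, since scaling makes levels of different experiments uncertain. The sites were 10517 bp wide at Hspa8 and 11887 bp at Hsp90aa1, but 2835 bp at Hsph1 and 3548 bp at Hsp90ab1, against a median of 2395 bp. Whether a narrow peak lay within them was not tested. The paper shows tracks of Halo-HSF2 at Hsp90aa1, and reports that it can bind specific sites with a weaker signal than endogenous HSF2.

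The same held for sites with a heat shock element. For endogenous HSF2 the median asynchronous signal was 8.87 at sites with the element and 3.82 at sites without it. In the Halo-HSF2 cells the order was the opposite one, 1.09 with the element and 1.69 without it. Anti-HA in Halo-HSF2 cells gave the same order as anti-HSF2, 0.894 and 1.46. The label names a factor that binds this element, but with neither antibody was the asynchronous signal of Halo-HSF2 cells higher at sites with it. Knockout cells without the construct were not analysed here, so what share of the signal came from the construct was not tested. The values are called below the anti-HSF2 signal of Halo-HSF2 cells.

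Site by site, the 2 Halo-HSF2 experiments were more alike in level than either was to endogenous HSF2. The Spearman correlation of asynchronous anti-HSF2 with anti-HA signal across the 2135 distinct sites was 0.560, and with endogenous HSF2 it was 0.170. In mitotic cells these were 0.563 and 0.359. For the anti-HSF2 signal of Halo-HSF2 cells, the change with phase had the other order. Across the 2121 sites with a ratio, its log2 M/A correlated at 0.301 with that of endogenous HSF2 and at 0.123 with that by anti-HA. Between endogenous HSF2 and anti-HA it was 0.0017 over 2135 sites. All of these describe averaged tracks over shared intervals and base composition.

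The size of the general shift was close in the 3 experiments. The median was 0.49 for endogenous HSF2, with 72.3% of 2135 sites above 0, 30.1% at 1 or more and 7.26% at −1 or less. By anti-HA it was 0.57, with 86.3% above 0, 19.8% at 1 or more and 0.843% at −1 or less. The anti-HSF2 value of Halo-HSF2 cells was higher than the endogenous one by a median of 0.094 over sites, and higher than that by anti-HA by 0.10. The former was 0.010 with a pseudocount of 1 and 0.042 with a minimum mean signal of 1, and both were 0.26 when centred. Sites spread more around the median with anti-HSF2, with an SD over sites of 0.924 in Halo-HSF2 cells and 1.18 for endogenous HSF2, than with anti-HA (0.581). The weakest quartile of sites had a median of 0.71 for endogenous HSF2 and 0.69 by anti-HA. Centring each experiment on its own gave 0.10 for the anti-HSF2 signal of Halo-HSF2 cells, −0.21 for endogenous HSF2 and −0.13 for anti-HA.

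**Figure D2:**
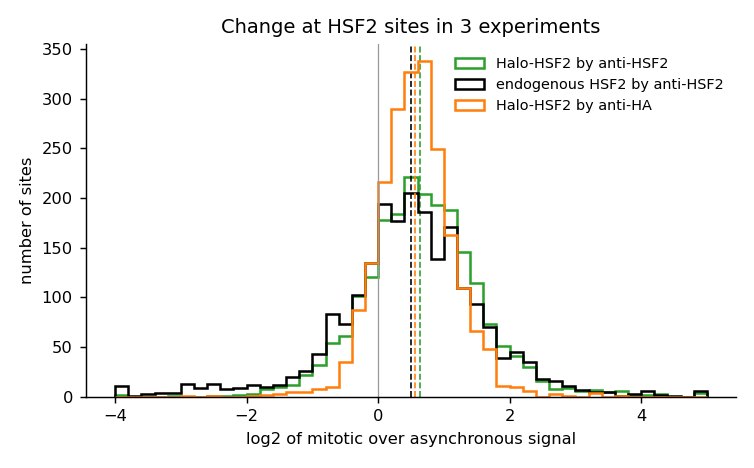
Number of HSF2 sites by log2 of mitotic over asynchronous signal in 3 experiments, with dashed lines at the medians (0.64, 0.49 and 0.57 for Halo-HSF2 by anti-HSF2, endogenous HSF2 and Halo-HSF2 by anti-HA). The 3 medians lie close together, and the anti-HA distribution is the narrowest; values beyond the ends are drawn in the outermost bars.

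Medians of log2 M/A by position and by overlap with other factors lay between 0.46 and 0.76. Sites within 1 kb of the start of a coding transcript had a median of 0.68 (1554 sites), those at a non-coding start 0.61 (128 sites), and those away from any start 0.54 (439 sites). Away from starts the spread was wider, with an SD over sites of 1.16 against 0.839 at coding starts. Sites overlapping an HSF1 site, where the paralogue HSF1 was also called, had a median of 0.52 (862 sites) against 0.73 for the rest. Overlap with a site of the pluripotency factor SOX2 went with 0.54 (403 sites) against 0.68. Sites with neither of these factors had the highest median of the 4 combinations, 0.76 (1096 sites), and sites with both the lowest, 0.46 (240 sites).

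Sites with a heat shock element had a lower log2 M/A, 0.46 over 293 sites, than the 1824 without one, 0.67. The difference of −0.21 was −0.091 with 1 base different allowed, which took in 1049 sites. It was found at coding starts (0.42 with and 0.71 without the element) and nearly absent elsewhere (0.54 and 0.57). It also shrank once sites were split by endogenous signal. In the quartile of sites with the strongest endogenous asynchronous signal the medians were 0.34 with the element and 0.31 without it, and in the other 3 quartiles 0.66 and 0.74. Strong endogenous sites thus had a low log2 M/A in Halo-HSF2 cells whether or not they held the element.

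Sites also differed by endogenous asynchronous signal. From the weakest to the strongest quartile by endogenous asynchronous signal, the median log2 M/A in Halo-HSF2 cells was 0.90, 0.77, 0.53 and 0.32. For endogenous HSF2, whose own asynchronous signal defined the quartiles, it went from 1.34 to −0.32. By anti-HA it was 0.64, 0.56, 0.50 and 0.56, with no such order. Across sites the Spearman correlation of log2 M/A in Halo-HSF2 cells with endogenous asynchronous signal was −0.260, against 0.117 with the CpG observed to expected ratio and 0.026 with site width. Sites richest in CpG had a median of 0.75 and those poorest 0.49, while quartiles by repeat content lay between 0.60 and 0.69.

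**Figure D3:**
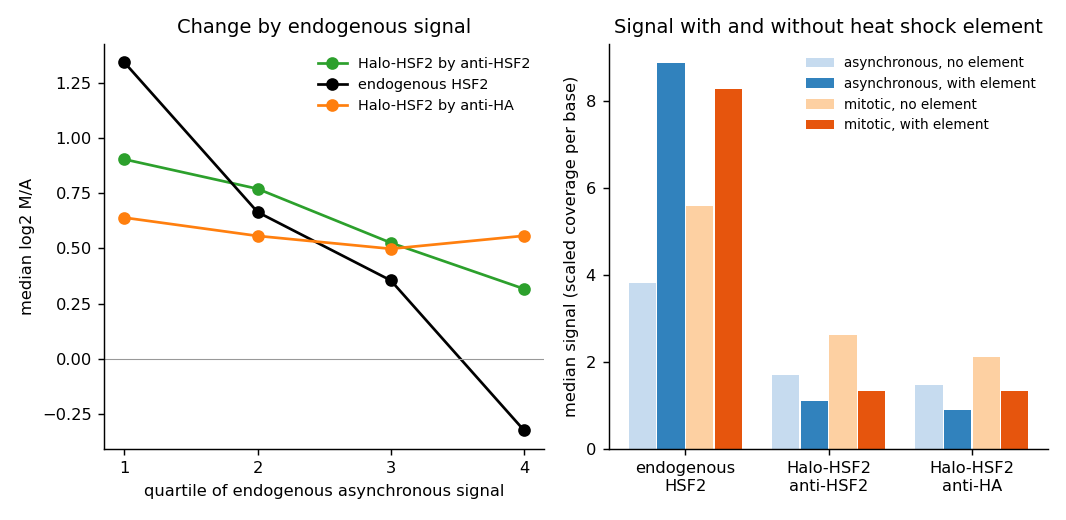
Left, median log2 M/A of 3 experiments in quartiles of endogenous asynchronous HSF2 signal; right, median signal (scaled coverage per base) at sites with and without a heat shock element, in both phases. The Halo-HSF2 line by anti-HSF2 declines from 0.90 to 0.32, and sites with the element are higher than the rest for endogenous HSF2 and lower in both Halo-HSF2 experiments.

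Chaperone genes had a lower mitotic share than most sites. The 29 sites at starts of 31 of 93 listed chaperone and co-chaperone genes had a median log2 M/A of 0.18, with 20 above 0 and 6 at 1 or more, against 79.7% and 33.5% of all sites. Relative to the weakest quartile of sites their median turned to −0.36, with 8 above 0, against 55.6% of all sites. Endogenous HSF2 gave 0.26 and anti-HA 0.50 at the same sites. An element was present in 13 of the 29, against 14.1% of all sites.

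Among the HSP70 and HSP110 genes (6 sites, median 0.08, or −0.45 relative to the weakest quartile) single members went both ways. Hspa9, the mitochondrial HSP70, had a log2 M/A of 1.26, with 1.36 in A and 3.25 in M. Hsph1 had 1.24 and 2.55 (1.04), whereas for endogenous HSF2 it was −0.24. Hspa8 was nearly level at 1.45 and 1.54, a log2 M/A of 0.08. Stress-inducible Hspa1b had the lower signal in M, 0.775 against 1.74 in A (−1.16). Its value was −0.20 for endogenous HSF2 and 1.00 by anti-HA, so the 3 experiments differed there by more than their medians did.

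The HSP90 group (7 sites, median 0.27, or −0.26 relative to the weakest quartile) was mixed as well. Hsp90aa1 had signals of 0.973 and 2.23, a log2 M/A of 1.20, while endogenous HSF2 gave −0.33. Hsp90ab1 went the other way, from 3.10 to 2.44 (−0.35). The co-chaperones Ptges3, also called p23, and Fkbp4, an immunophilin of HSP90 complexes, had −0.03 and 0.02. Neither of these co-chaperone sites held an element, although 3 of the 7 sites of the group did.

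HSP40 and BAG proteins hand clients to HSP70 or act on its cycle. Their 8 sites had a median of 0.25, or −0.29 relative to the weakest quartile. Dnajc13, which acts on endosomes, had the strongest signal of the group, 4.16 in A and 6.39 in M (0.62). Dnajc16 had 0.85, Dnajc14, a J protein of the endoplasmic reticulum, −0.50, and Dnajb1, the stress-inducible HSP40, 0.09. For endogenous HSF2 Dnajb1 had a signal of 47.2 in A, above 98.8% of sites, against 70.4% in the Halo-HSF2 cells.

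The chaperonins (7 sites) had a median of 0.18, or −0.36 relative to the weakest quartile. The site between Hspd1 and Hspe1, which encode mitochondrial HSP60 and its lid HSP10 from a shared promoter, had 1.28 in A and 1.83 in M (0.52). It held the 4-unit element printed above. Cct7 and Cct6a, subunits of the cytosolic chaperonin, had lower mitotic signals, with −0.62 and −0.71. Another of its subunit genes, Cct3, had 0.26. The only small heat shock protein with a site, Hspb1, had 1.15 and 1.53 (0.41).

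Of the heat shock factor genes, Hsf1 and Hsf4 had a site. The Hsf1 start went from 0.584 to 1.56 (1.41), with a higher mitotic signal in the endogenous (2.99) and anti-HA (1.45) experiments too. Hsf4 had −0.20, against −2.64 for endogenous HSF2. Ubb, a gene of ubiquitin, which tags proteins for degradation, had 0.84. The proteasome genes with a site had 0.96 at Psmd7 and 0.79 at Psmd3, which encode subunits of the regulatory particle. At Psme3, which encodes a nuclear activator of the proteasome, it was 2.41, from 0.323 in A to 1.72 in M.

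Translation factors had the highest median of the longer lists, 1.08 over 9 sites, or 0.54 relative to the weakest quartile. All 9 were above 0, 7 of them also after centring, and 5 were at 1 or more, against 79.7%, 55.6% and 33.5% of all sites. Eif5a, needed for elongation through difficult peptide bonds, had the strongest signal, 4.82 in A and 10.2 in M (1.08). Eif4a1, the helicase of the cap-binding complex, was level with 3.72 in both phases (0.0026). Eif5 and Eif1, which act in start codon selection, had 0.65 and 0.56. Anti-HA gave a median of 0.32 at these 9 sites and endogenous HSF2 0.36.

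Splicing factor genes were above 0 at 14 of 14 sites, with a median of 0.67, close to that of all sites, of which 79.7% were above 0. After centring 8 were above 0, near the 55.6% of all sites. Srsf2, an SR protein that defines exons, had 2.03 in A and 8.39 in M (2.05). Ptbp1, a repressor of exon inclusion, had 1.37 and 4.38 (1.68). Hnrnpa1 had 0.73 and Snrpa, a U1 snRNP protein, 0.07. By anti-HA these same 4 lay between 0.020 and 0.26, below the anti-HSF2 values at Srsf2, Ptbp1 and Hnrnpa1 but not at Snrpa.

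Cytosolic ribosomal protein genes, with sites at 17 of 83, were close to all sites in Halo-HSF2 cells by anti-HSF2. Their median was 0.64 and exceeded that of all sites by 0.0039, with 15 above 0 (10 after centring) and 7 at 1 or more, near the 79.7%, 55.6% and 33.5% of all sites. Endogenous HSF2 gave a median of 0.36, and anti-HA 0.059 with 11 of 17 above 0, below its 0.57 and 86.3% over all sites. Rpl19 and Rps21, of the large and small subunit, had 1.29 and 1.27. Rpl23 had 0.64.

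Histone and small nuclear RNA genes, which are transcribed from clustered or repeated copies, had medians of 0.38 (17 sites) and 0.37 (25 sites), which turned to −0.16 and −0.17 relative to the weakest quartile. The pair of histone sites with the strongest mean signal, over Hist2h2aa2 and Hist2h3c2 and over Hist2h2aa1 and Hist2h3c1, had 1.29 and 1.15. The cluster at Hist1h2ap had 0.48 and that at Hist1h2ao 0.53. Of the small nuclear RNA genes, Gm24842 had 1.17, Gm23137 0.74 and Gm25794 0.56, whereas Gm22634 went from 3.79 to 1.94 (−0.96). Anti-HA gave a median of −0.06 for histone and −0.17 for small nuclear RNA genes, and a value of −1.16 at Gm22634. Near-identical copies of these genes share reads, so values at a single copy are uncertain.

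Pluripotency genes had a median of 0.35 over 7 sites, or −0.19 relative to the weakest quartile, with 6 above 0, near the 79.7% of all sites. After centring 2 were above 0, against 55.6% of all sites. None was at 1 or more, against 33.5% of all sites. Pou5f1, which encodes OCT4, had 1.43 in A and 1.94 in M (0.44), while endogenous HSF2 gave −0.65. Klf5 and Klf2, members of the naive network, had 0.71 and 0.35. Stat3, the effector of LIF, was the only site of the list below 0 before centring, with 3.96 and 2.66 (−0.57). Of the mitotic regulators, Ncapd2 of condensin had 1.25 and the kinetochore gene Cenpf 0.57. Fzr1, an activator of the anaphase-promoting complex, had 0.05.

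**Figure D4:**
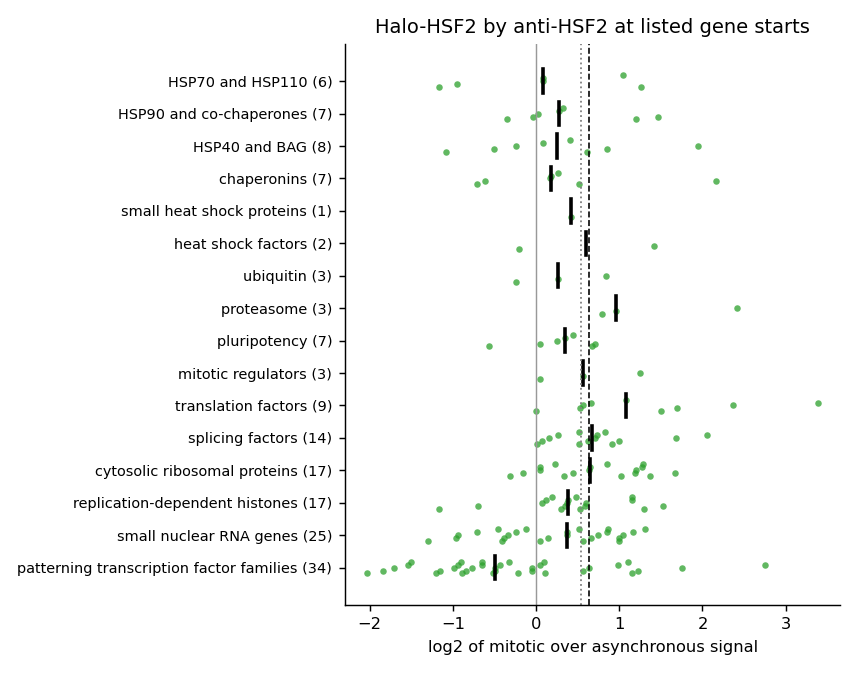
log2 of mitotic over asynchronous anti-HSF2 signal of Halo-HSF2 cells at starts of listed genes (1 point a site, bar at the median, number of sites in brackets), with a dashed line at the median of all sites (0.64) and a dotted line at the weakest quartile (0.54). Translation factors (1.08) lie above both lines, and chaperone groups, histones and small nuclear RNA genes lie above 0 but turn below it relative to the dotted line; patterning factors (−0.50) are below 0 either way.

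Genes of developmental patterning stood on the other side. The list of homeobox, SOX, PAX, FOX, GATA, T-box and related families was chosen after its values were seen, so it is a description. Its 34 sites, at 33 of 220 genes, had a median log2 M/A of −0.50, 1.14 below that of all sites. Of them 11 were above 0, 5 at 1 or more and 7 at −1 or less, against 79.7%, 33.5% and 2.92% of all sites. Relative to the weakest quartile the median was −1.04. The median signal went from 2.16 in A to 1.63 in M. Endogenous HSF2 had a median of −2.63 at these sites, from 14.6 to 2.79, with 27 of 34 at −1 or less, against 7.26% of all sites. By anti-HA the median was 0.74, near the 0.69 of the weakest quartile in that experiment, and 32 of 34 were above 0, near the 86.3% of all sites. Patterning genes thus stood below other sites in both experiments with anti-HSF2. By anti-HA they did not, with 0.74 against a median of 0.57 over all sites.

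The strongest of these sites by mean signal were at Msx1, Sox12, Irx5 and Pax9. Msx1, a homeobox gene of craniofacial development, had 6.06 in A and 1.70 in M (−1.84). Pax9, which acts in pharyngeal and tooth development, had 3.91 and 2.18 (−0.84), and endogenous HSF2 went from 21.1 to 2.75 there. Irx5 had −0.21, and Sox12, a SOXC gene, 0.63. The highest value was at Foxm1, a gene of cell division and not of patterning, with 0.247 and 1.67 (2.76). This site was chosen after its values were seen. In the strongest quartile of endogenous asynchronous signal, 30 sites with such a gene start had a median of −0.71, against 0.40 for the 328 sites there with neither a patterning factor start nor an element. The median endogenous signal of these sets in A was 16.1 and 10.7, so they were not matched on it.

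The 8 lowest log2 M/A among the 1068 sites with at least the median mean signal (2.06) ran from −2.10 to −1.51, and several lay at such genes. Dlx6os1, a non-coding RNA gene beside Dlx5, went from 5.57 in A to 1.30 in M. Ebf3, a factor of neuronal differentiation, went from 4.52 to 1.11 (−2.03). Sox17, a regulator of endoderm, went from 4.68 to 1.26 (−1.89). Msx1 was the fourth of them, and Sox21, a factor of neural progenitors, had −1.51. The site nearest 2610034O05Rik, in an intron 7476 bp from the homeobox gene Onecut3, had −1.61. Rnf44, a RING finger gene, had the strongest asynchronous signal of the 8, 7.00 against 2.37 in M (−1.56). The last site was 12663 bp from Il17a, a cytokine gene, with −1.61.

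All 8 had a lower mitotic signal for endogenous HSF2 too, with a median of −2.28, whereas 72.3% of all sites were above 0 there. The endogenous value was −5.16 at Ebf3 and −6.05 near 2610034O05Rik, but only −0.11 at Rnf44. By anti-HA 7 of the 8 were above 0, with −0.01 at Msx1 and a median of 0.67, again near the 0.69 of the weakest quartile. Of the 62 sites at −1 or less in Halo-HSF2 cells, 24 were at −1 or less for endogenous HSF2, against 7.26% of all sites. By anti-HA 5 of the 62 were at −1 or less, against 0.843% of all sites, and 50 of the 62 were above 0, near the 86.3% of all sites.

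The 8 highest values among the same 1068 sites, between 3.55 and 4.38, likewise had endogenous values of the same sign. The site at Gm25911, a microRNA gene, went from 1.07 in A to 22.3 in M, and endogenous HSF2 went from 5.04 to 85.5. The site nearest Gm27679 went from 0.574 to 10.3 (4.17), and its endogenous value of 5.61 was the highest of all sites. The site 4431 bp from Atf2, which encodes a leucine zipper factor, went from 1.09 to 14.1 (3.69). The site by Gm48099 had 3.58. The sites nearest Hsfy2, at 144087 bp, and Camsap2, at 18101 bp, had 4.29 and 3.90. Only 2 of the 8 lay at a coding start, against 72.9% of all sites. Degs1, a desaturase of ceramide synthesis, went from 0.556 to 7.47 (3.75), and Hdac4, a class IIa histone deacetylase, from 0.598 to 7.03 (3.55).

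Endogenous HSF2 was above 0 at 8 of these 8, against 72.3% of all sites, with a median of 4.11. Anti-HA was also above 0 at 8 of 8, against 86.3% of all sites, but with a median of 0.21 and at most 1.21, at Degs1. Conversely, 36 sites had an endogenous log2 M/A of 3 or more. By anti-HSF2 in Halo-HSF2 cells 34 of them had a ratio, with a median of 2.38. By anti-HA the median over all 36 was 0.30. At the other end, 155 sites had an endogenous value of −1 or less, and the 154 of them with a ratio by anti-HSF2 in Halo-HSF2 cells had a median of −0.07. The part of the antibody and of the line in this was not tested.

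**Figure D5:**
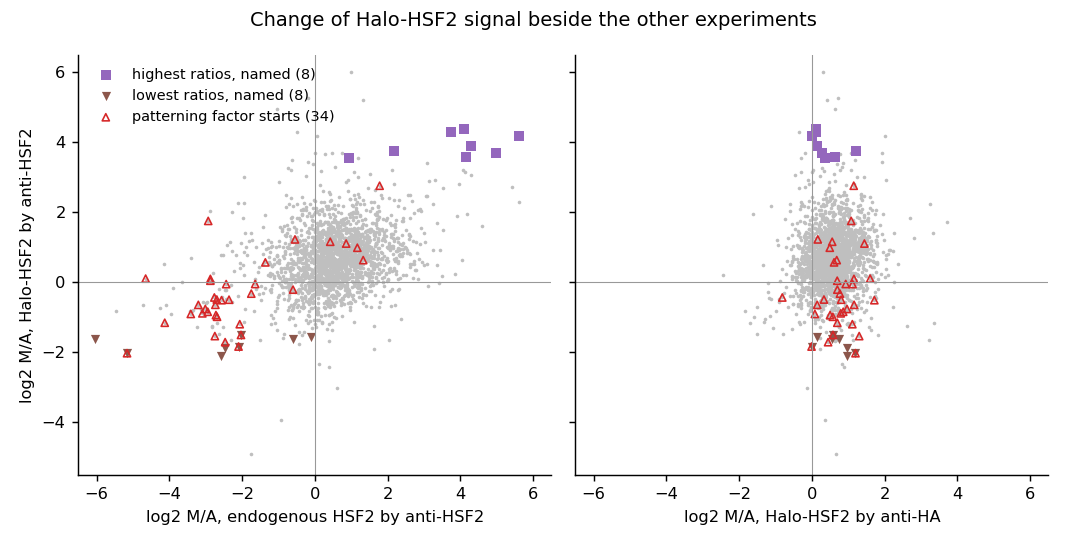
log2 of mitotic over asynchronous anti-HSF2 signal in Halo-HSF2 cells (vertical) against that of endogenous HSF2 (left) and of Halo-HSF2 by anti-HA (right), 1 point a site. Among sites of at least the median mean signal, the 8 highest ratios (median 3.82) and 8 lowest (median −1.72) follow the endogenous axis, with medians there of 4.11 and −2.28, and not the anti-HA axis, with 0.21 and 0.67; patterning factors are low on the left and mostly above 0 on the right, near the anti-HA value of the weakest quartile (0.69).

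The strongest signal lay away from coding starts. The 10 sites with the highest mean held 11.5% of the summed asynchronous signal and 12.7% of the mitotic signal. None was within 1 kb of a coding start, where 72.9% of all sites lay, and none held an element, which 14.1% of sites did, and they were narrow, from 297 to 908 bp. The site nearest Gm10801 (chr2:98663689-98664090 of mm10) had 149.8 in A and 325 in M (1.12), and soft-masked repeat made up 65.4% of it. It was followed by sites nearest the pseudogene Vmn2r-ps139 on chromosome Y (71.0 and 113, or 0.67) and the non-coding gene Gm13173 (55.4 and 80.5, or 0.54). A site 1728 bp from Aida had 1.32, and a pair nearest Gm20948 had 1.30 and 1.80.

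The other 4 had 0.03 nearest Fhl4, 0.22 nearest Gm43393, 0.76 nearest Gm12591 and 0.53 nearest 4930573C15Rik. All 10 were above 0 in Halo-HSF2 cells with either antibody, near the 79.7% and 86.3% of all sites, against 3 of 10 for endogenous HSF2, where 72.3% of all sites were. At Gm10801 the endogenous value was −2.03. The endogenous asynchronous signal was high at several of them, 142 nearest Fhl4, 141 nearest Gm43393, 127 nearest Gm10801 and 125 nearest Gm13173, above that at Hsph1 (114). Relative to the weakest quartile, those at 0.03, 0.22 and 0.53 lay below 0. These 10 sites were high in all 3 experiments. Their asynchronous signal ran from 23.9 to 142 for endogenous HSF2 and from 3.45 to 277 by anti-HA. The medians over all sites were 4.14 and 1.36. Soft-masked repeat made up at least 50% of 3 of the 10, against 2.48% of all sites. Whether reads mapped uniquely there was not tested.

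Of the chromosomes with at least 45 sites, the lowest median was on chromosome 13 (0.27, 62 sites) and the highest on chromosome 16 (0.86, 47 sites). Chromosome 11 had the most sites, 324, with a median of 0.59, and chromosome 8 followed with 221 and 0.60. On chromosome 13 anti-HA gave 0.47 and endogenous HSF2 0.24.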

How the data were processed

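CUT&Tag signal of Halo-HSF2 cells by anti-HSF2, with endogenous HSF2 and Halo-HSF2 by anti-HA for comparison, was taken as the authors deposited it. The authors aligned reads to mm10 with Bowtie2, kept PCR duplicates, scaled coverage with deepTools by a constant over reads of Drosophila S2 cells, and averaged the 2 libraries of a condition. The methods also state a normalization of asynchronous samples to 1. Scaling values listed for some libraries differ from that, so it is unclear whether this was done, and levels were compared within an experiment or as places. HSF2 sites were SEACR peaks of endogenous HSF2 in either phase, called against IgG and combined. Of 8 signal columns 2, of the DNA-binding domain construct, were not used, and knockout, mixed, HA control and IgG libraries were not analysed here, so no background was subtracted.

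From this deposited signal, log2 M/A was computed without a pseudocount at distinct sites above 0 in both phases. A site belonged to a gene where it reached to within 1 kb of a transcript start of the mm10 annotation. HSF1 and SOX2 overlap needed 1 bp. Elements were searched as exact matches on both strands. Promoter sequences were those of RefSeq. The depth of the Halo-HSF2 libraries by anti-HSF2 is unknown from the values used here. Read totals listed by the study for the anti-HA libraries were not used. Condition means allow no replicate test.

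Named sites followed a rule. For gene lists with 5 or fewer sites all were named, otherwise the 4 with the highest mean of A and M. The 8 highest and 8 lowest log2 M/A among sites with at least the median mean signal, and the 10 sites with the highest mean, were added. Each was named by its nearest start. A few sites that the rule takes are not reported here. The members and lists were chosen with earlier results of these data known. The patterning list and 6 alternatives were added after seeing the data. Alternatives covered pseudocounts, a minimum signal, repeated intervals, centring, ratio and correlation measures, nearness to a start and the definition of the element. The calculations were tested on simulated data. Versions were matplotlib 3.10.9, pysam 0.24.0, scipy 1.17.1, pandas 2.3.3 and numpy 2.4.6 under Python 3.11.15.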

Additional observations from a re-analysis of the deposited data

How the results depend on the processing

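No paired analysis was possible because the values used here are means over the libraries of a condition, and no library could be left out. Of 45 alternative values for 10 results, 11 were counted as unchanged, 34 as moved and 0 as reversed in direction. A value counted as unchanged if it was equal after rounding. For the share of sites it had to lie within a 95% Wilson interval over sites. No spread between libraries was at hand and sites are not replicates, so neither limit measures uncertainty, and small moves are counted. The cause of each move was not tested. The median log2 M/A of 0.64 became 0.61 with a pseudocount of 0.1, 0.42 with 1, 0.65 with a minimum mean signal of 1, 0.10 centred on the weakest quartile, 0.71 as the ratio of means and 0.76 in the strongest quartile. The share of sites with higher mitotic signal became 55.6% when centred.

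The difference from endogenous HSF2 (0.094) became 0.010 with a pseudocount of 1, 0.042 with the minimum signal, 0.097 with repeats counted and 0.26 when centred. That from anti-HA (0.10) became 0.11 with a pseudocount of 0.1, 0.091 with 1, 0.12 with the minimum signal and 0.26 when centred. R2 (0.401) was 0.885 on linear values, 0.340 as squared Spearman correlation, 0.282 with the minimum signal, and 0.428 and 0.490 with pseudocounts of 0.1 and 1. The difference of coding starts from other sites (0.13) became 0.17 where the site held the start, 0.078 within 5 kb, 0.15 with the minimum signal and 0.12 with a pseudocount of 1.

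The difference with the element (−0.21) became −0.20 with 4 units (24 sites), −0.091 with 1 base different allowed (1049 sites), −0.27 with the minimum signal and −0.18 with a pseudocount of 1. In alternatives added after seeing the data it was −0.29 at coding starts and −0.033 elsewhere. With a pseudocount of 1, chaperone starts minus all sites (−0.46) became −0.35, ribosomal protein starts (0.0039) 0.061 and patterning factor starts (−1.14) −0.73. Without the sites among the 8 lowest values, the last was −1.08.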
